A study of Mus musculus with 24 samples.

Results

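The genes described here are the mouse transcription factors Tead1, Tead2, Tead3 and Tead4, their vestigial-like partners Vgll2, Vgll3 and Vgll4, and the coactivators Yap1 and Wwtr1, the last of which encodes TAZ. They were taken by name and matched through their Ensembl identifiers, which gave 9 genes of the 39017 counted in the RNA-Seq of NIH 3T3 cells, fibroblasts that came from mouse embryos and grow without limit in culture. There were 24 libraries, 3 for each of 8 groups, and all 8 groups carried a retroviral pBabeNeo vector and were kept as pooled lines selected with G418, so a group is a mixed population and not a clone. The TFE3, YAP-TFE3, YAP5SA, TAZ-CAMTA1, TAZ4SA and empty vector (EV) cells were harvested after 48 h of confluence. CAMTA1 cells were harvested while sub-confluent, and the group EVsub is the empty vector whose title marks it as sub-confluent. TAZ4SA and YAP5SA are full-length TAZ and YAP in which the serines phosphorylated by the LATS kinases were replaced by alanine. TAZ-CAMTA1 and YAP-TFE3 are the fusion proteins of epithelioid hemangioendothelioma, a vascular sarcoma, and CAMTA1 and TFE3 are their full-length C-terminal partners.

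TEAD proteins bind DNA but activate little by themselves, and YAP or TAZ supplies the activating domain once the Hippo kinases leave it in the nucleus. The VGLL proteins dock on TEADs as well and carry no DNA-binding domain, so they share or compete for the same partner. VGLL4 is best known as a repressor of YAP-TEAD transcription, VGLL2 as a cofactor in skeletal muscle and VGLL3 as a cofactor in mesenchymal cells. In fibroblasts YAP and TAZ respond to cell density, and dense cultures normally hold them in the cytoplasm.

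Total counts ran from 16471181 to 30132586 per library. Levels are given as CPM, counts scaled to the depth of the library with the TMM factors of edgeR, and a gene was called changed at a Benjamini-Hochberg adjusted p under 0.05 in the quasi-likelihood test of edgeR on 14361 genes. Fold changes are on the log2 scale with their SE. By the study's methods the 3 libraries of a group come from lines that were transduced and selected apart from each other, so the p-values measure the spread between such lines. The species of the construct sequences is not given in the sources used here, and reads of a construct may or may not be counted for the mouse gene. Tfe3 had 1658 to 1952 counts in the TFE3 libraries against 1953 to 2017 in EV, and Camta1 had 236 to 305 counts in the CAMTA1 libraries against 111 to 123 in EVsub. In the fusion groups, Camta1 had 98 to 124 counts in TAZ-CAMTA1 against 101 to 115 in EV, and Tfe3 1509 to 2389 in YAP-TFE3. The Camta1 counts were thus higher under the CAMTA1 construct, while the other counts were not wholly above their empty vector and do not check the labels TFE3, TAZ-CAMTA1 and YAP-TFE3, and the Yap1 and Wwtr1 values below may mix endogenous and construct reads.

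All 9 fibroblast markers tested were present in every group, and their summed level ran from 19863 CPM in the lowest CAMTA1 library to 57018 CPM in the highest YAP-TFE3 library. Markers of other cell types were low but moved with the groups. The 6 epithelial markers summed to 0.31 to 0.591 CPM in EV and to 7.51 to 9.25 CPM in YAP5SA, with Epcam at 0 in all libraries. In YAP5SA the sum was mostly Krt14 (7.46 to 9.06 CPM). Cdh1 stood at 0.0 to 0.0513 CPM there against 0.133 to 0.253 CPM in EV. The 5 endothelial markers summed to 2.34 to 4.51 CPM in EV and 8.49 to 12.1 CPM in TAZ4SA. The TAZ4SA sum was mostly Kdr (7.61 to 11.2 CPM), while Tek stood at 0.149 to 0.3 CPM there against 2.2 to 4.29 CPM in EV. The 6 skeletal muscle markers summed to 0.43 to 0.633 CPM in EV, 7.3 to 12.8 CPM in TAZ4SA and 6.53 to 11.1 CPM in YAP5SA, with Myod1 at 0 in all libraries. The TAZ4SA sum was mostly Des (3.87 to 8.32 CPM) and Ttn (2.46 to 4.02 CPM), with Ckm at 0.0 to 0.0992 CPM and Myog at 0.3 to 0.546 CPM. The 5 blood and myeloid markers summed to 3.49 to 5.0 CPM in EV, 84.1 to 133 CPM in YAP5SA and 118 to 244 CPM in YAP-TFE3, but from different genes. In YAP-TFE3 the sum was mostly Lyz2 (113 to 239.7 CPM, with Cd68 at 2.63 to 3.75 and Csf1r at 1.21 to 1.61), and in YAP5SA mostly Cd68 (46.5 to 77.8 CPM) and Csf1r (30.4 to 53.4 CPM), with Lyz2 at 0.245 to 0.719 CPM. Ptprc, the pan-leukocyte marker, stayed at 0.0422 to 0.0955 CPM in EV and 0.0 to 0.147 CPM in YAP5SA. Between the 8 groups the 4 neuronal markers summed to between 1.003 and 9.48 CPM, the highest being a CAMTA1 library. The CAMTA1 sum was mostly Tubb3 (3.34 to 8.76 CPM), with Rbfox3 at 0.0 CPM. Snap25 stood at 0.571 to 1.05 CPM there against 0.525 to 0.841 CPM in EV. The part of these genes in the results below was not tested, and in bulk RNA fewer cells of a type and less RNA per cell cannot be told apart.

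RefSeq promoter windows (build GRCm38.p6) were at hand for 7 of the 9 genes, all but Tead1 and Tead4. The 250 bases before each start were searched on both strands for the TEAD core GGAATG, the AP-1 site TGANTCA and the E-box CACGTG bound by MiT/TFE factors such as TFE3. The TEAD core was found in a window of Tead3, Vgll3, Vgll4, Yap1 and Wwtr1, and it was absent from the windows of Tead2 and Vgll2. Of all 32851 windows, 12.6% held the TEAD core, 6.75% the AP-1 site and 6.02% the E-box. These shares are per window. A member was counted with any of its windows, of which Tead3 had 3 and Wwtr1 had 2, so members and shares are not in like units. The E-box stood in the windows of Vgll2, Vgll4 and Yap1, and no member's window held the AP-1 site. The members' windows were 57.2% to 76.8% G and C, above the median of 52.4% over all windows. A match of letters is a description and does not show that a factor binds there. The windows of Yap1 (chr9:8004597-8004846, minus strand), Wwtr1 (chr3:57575911-57576160, minus strand), Vgll3 (chr16:65814939-65815188, plus strand) and Vgll4 (chr6:114969204-114969453, minus strand) are shown because these genes are the coactivators and TEAD cofactors whose levels moved with the constructs, and because the windows hold no exonic base of the gene itself (that of Vgll4 lies inside the annotated gene, upstream of a later start). They read 5′ to 3′ on the gene's strand, and capitals mark the TEAD core in either orientation (GGAATG or CATTCC) and the E-box.
Yap1: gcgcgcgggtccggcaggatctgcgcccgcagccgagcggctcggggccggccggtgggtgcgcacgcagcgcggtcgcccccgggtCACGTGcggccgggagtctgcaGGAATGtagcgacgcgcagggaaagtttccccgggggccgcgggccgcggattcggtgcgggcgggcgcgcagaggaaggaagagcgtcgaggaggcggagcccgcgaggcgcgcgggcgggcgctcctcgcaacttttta
Wwtr1: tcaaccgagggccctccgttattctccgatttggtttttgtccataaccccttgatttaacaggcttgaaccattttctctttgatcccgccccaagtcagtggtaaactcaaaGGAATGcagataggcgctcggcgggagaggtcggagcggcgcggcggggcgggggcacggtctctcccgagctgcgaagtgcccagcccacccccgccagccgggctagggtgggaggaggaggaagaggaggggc
Vgll3: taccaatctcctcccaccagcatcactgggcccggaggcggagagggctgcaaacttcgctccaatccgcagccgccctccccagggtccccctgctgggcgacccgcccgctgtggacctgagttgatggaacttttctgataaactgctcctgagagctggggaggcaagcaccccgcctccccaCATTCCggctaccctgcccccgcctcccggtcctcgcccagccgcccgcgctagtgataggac
Vgll4: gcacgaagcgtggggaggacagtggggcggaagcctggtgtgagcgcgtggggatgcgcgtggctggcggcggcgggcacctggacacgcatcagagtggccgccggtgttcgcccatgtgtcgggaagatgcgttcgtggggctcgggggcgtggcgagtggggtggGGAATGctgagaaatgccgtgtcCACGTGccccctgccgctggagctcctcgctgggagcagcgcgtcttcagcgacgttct

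Of the 9 genes, 8 passed the limit of a mean of 5 counts and could be tested, and Vgll2 had no read in any library. In TAZ4SA against EV, 5 of the 8 were called, 4 higher and 1 lower, where 57.5% of all genes tested (31.1% higher and 26.4% lower) were called. YAP5SA against EV gave 6 of 8, 5 higher and 1 lower, against 71.2% of all genes tested (36.3% higher and 34.9% lower). With so wide a background, the number of members called in these full-length groups was close to that of genes at large. The fusion proteins called fewer genes. TAZ-CAMTA1 against EV gave 4 of 8, 2 in each direction, against 21.5% of all genes tested (12.5% higher and 8.98% lower), and YAP-TFE3 against EV gave 3 of 8, 2 higher and 1 lower, against 15.3% of all genes tested (10.6% higher and 4.74% lower). The members' median log2 fold change was 0.24 in TAZ4SA, 0.19 in TAZ-CAMTA1, 0.54 in YAP5SA and 0.0038 in YAP-TFE3, where the median over all genes tested lay between -0.0041 and 0.049. No member was called in TFE3 against EV by DESeq2 or in the edgeR fit of all groups (2 of 8 at an unadjusted p under 0.05; an edgeR fit of those 2 groups alone called 1, Tead3), against 3.38% of all genes tested (2.36% higher and 1.02% lower). None was called by edgeR in CAMTA1 against EVsub (3 of 8 at an unadjusted p under 0.05, and 1 by DESeq2, Vgll4), against 2.18% of all genes tested (1.29% higher and 0.891% lower). EVsub against EV, which compares the sub-confluent with the confluent empty vector, gave 3 of 8, all lower, against 22.1% of all genes tested (12.5% higher and 9.59% lower). The comparisons with EV share the same 3 EV libraries.

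**Figure D1:**
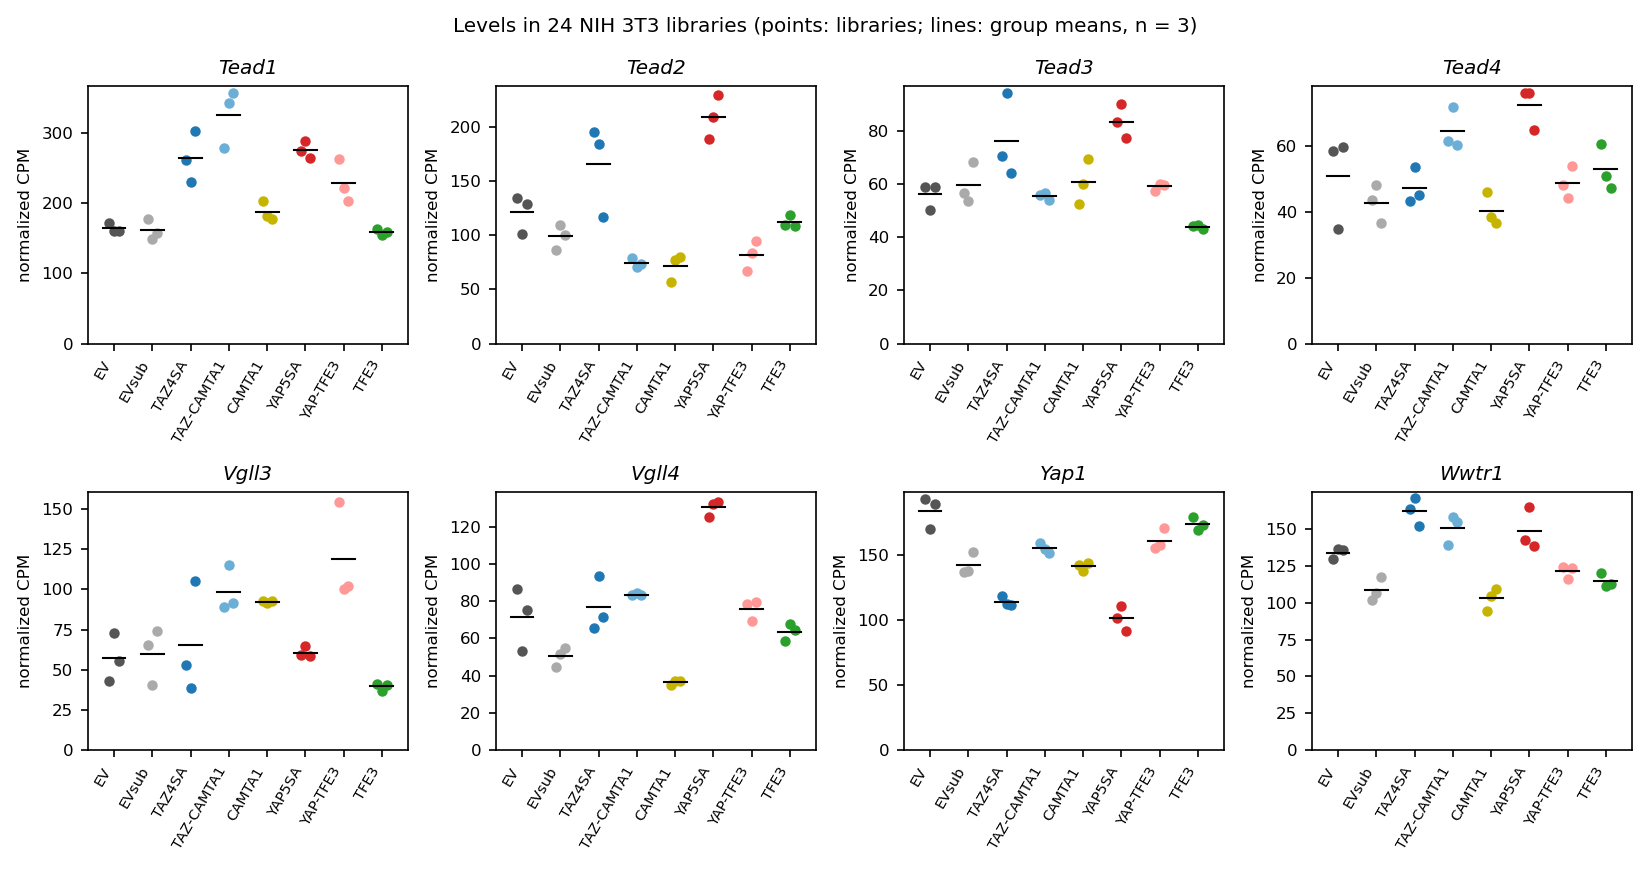
Level of the 8 detected genes in each library (y axis, normalized CPM, starting at 0) by group (x axis), with a point per library and a line at the mean of the 3 libraries of a group. Yap1 was lowest in TAZ4SA and YAP5SA, Tead2 was high in those groups and low in both fusion groups and in CAMTA1, and Vgll4 stood apart in YAP5SA.

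**Figure D2:**
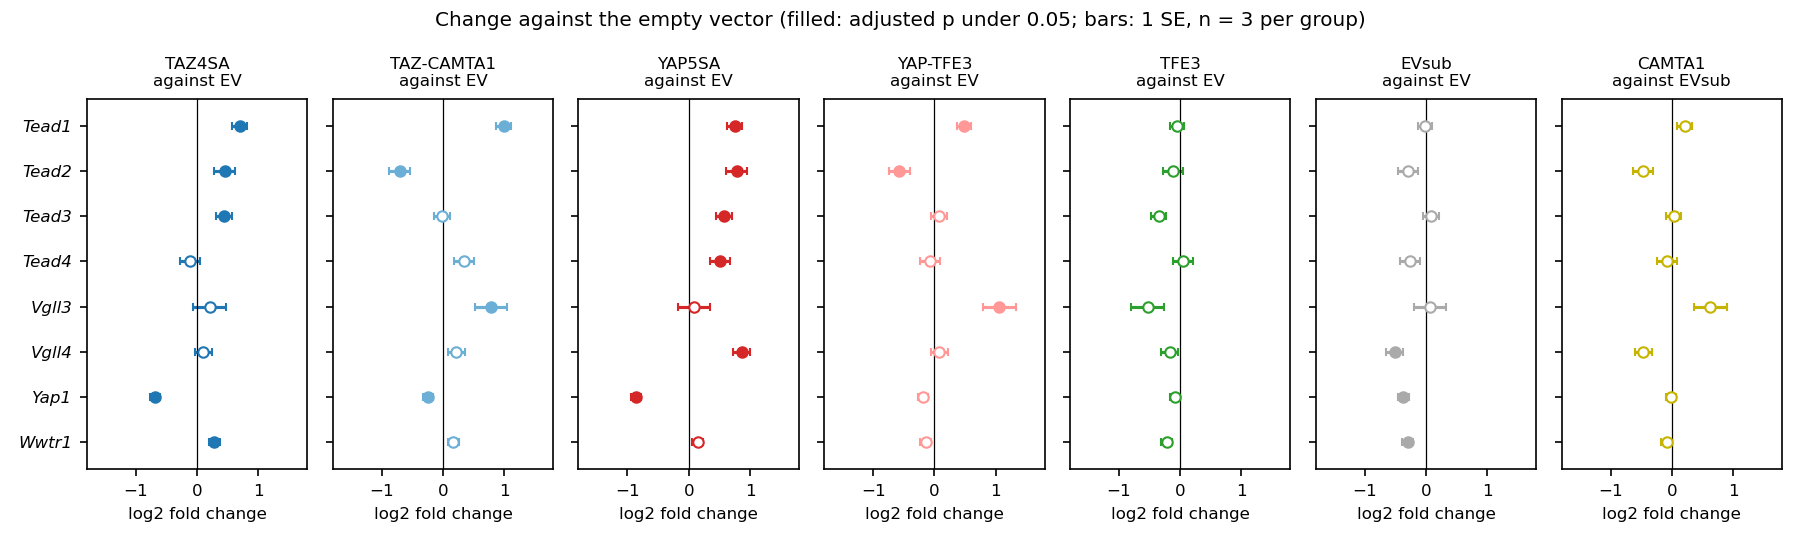
Log2 fold change of each gene (x axis) in the 7 comparisons with an empty vector, with bars of 1 SE and filled points at an adjusted p under 0.05. Tead2 lies to the right of 0 in the full-length forms and to the left in the fusions, and no point of TFE3 or CAMTA1 is filled.

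Set on 1 scale by length (CPM per kb of merged exon), Tead2 was the most abundant TEAD transcript in EV at 25.4 ± 3.73 (SD, n = 3 here and for all levels below), followed by Tead4 at 14.2 ± 3.91, Tead1 at 12.1 ± 0.44 and Tead3 at 8.36 ± 0.734. Tead2 made up 42.3% ± 0.379 of the summed TEAD level in EV and 45.2% ± 3.74 in YAP5SA. In TAZ-CAMTA1 the leading gene changed: Tead1 made up 36.4% ± 3.38, Tead4 27.4% ± 1.92 and Tead2 23.7% ± 2.43. In YAP-TFE3, Tead1 (30.1% ± 4.82) and Tead2 (30.2% ± 4.48) were level within their spread. The same held in sub-confluent CAMTA1, which is not a fusion, at 28.2% ± 2.84 for Tead1 and 30.4% ± 4.54 for Tead2. Its control EVsub had 22.4% ± 2.73 and 38.7% ± 3.34, and TFE3 had 20.8% ± 0.869 and 41.6% ± 2.1. The Tead1 share ran from 32.8% to 39.6% in the TAZ-CAMTA1 libraries and from 18.4% to 23.6% in EV, so these ranges did not overlap. With the length of the longest transcript in place of the merged exons, the Tead1 share was 19.6% in EV and 35.6% in TAZ-CAMTA1, and that of Tead2 41.97% and 23.9%. The share of Tead4 was then 19.2% and 22.9%, and that of Tead3 19.2% and 17.6%. Tead2 thus led in EV and Tead1 in TAZ-CAMTA1 with either length, while the order of Tead4, Tead1 and Tead3 in EV and of Tead4 and Tead2 in TAZ-CAMTA1 depended on the length used. The summed TEAD level was 60.04 ± 8.57 CPM per kb in EV, 78.7 ± 8.55 in TAZ4SA, 65.8 ± 3.08 in TAZ-CAMTA1, 96.6 ± 3.19 in YAP5SA and 56.3 ± 1.99 in YAP-TFE3. The other sums were 53.4 ± 1.79 in EVsub, 49.03 ± 1.41 in CAMTA1 and 56.4 ± 2.24 in TFE3, so YAP5SA held the highest and CAMTA1 the lowest sum.

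**Figure D3:**
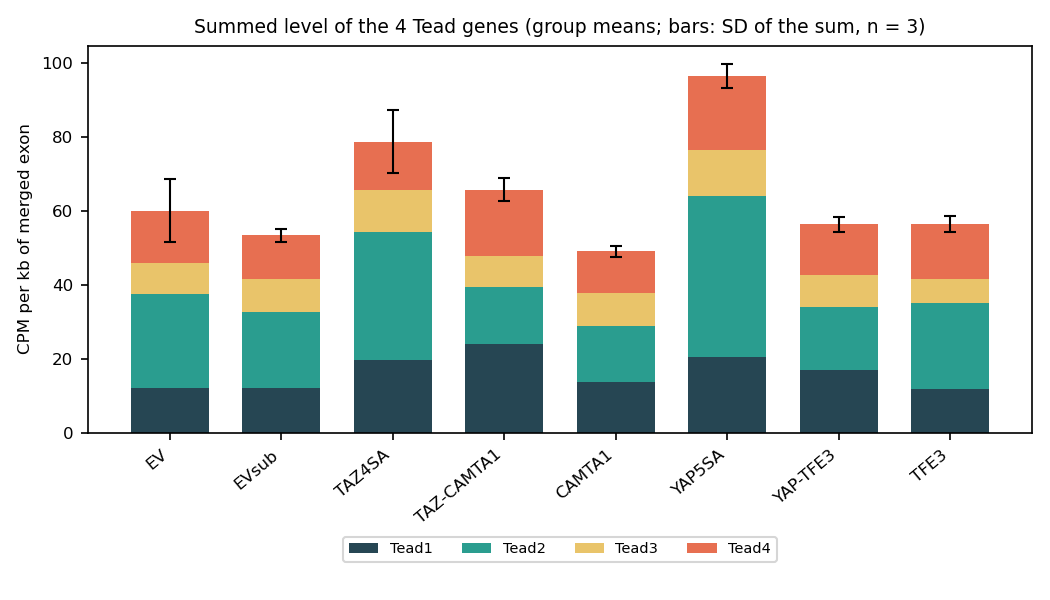
Summed level of the 4 Tead genes (y axis, CPM per kb of merged exon) by group (x axis), stacked by gene, with group means and bars for the SD of the sum over 3 libraries. The Tead2 segment is widest in EV, TAZ4SA and YAP5SA, and in TAZ-CAMTA1 the Tead1 segment is wider than that of Tead2.

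Tead1 (ENSMUSG00000055320, chr7:112679318-112906807 on the plus strand, build mm10), a TEAD expressed in most adult tissues, was higher with each of the 4 TAZ or YAP constructs. It stood at 171, 161 and 160.5 CPM in the EV libraries, 262, 229.8 and 303 CPM in TAZ4SA and 278, 342 and 356 CPM in TAZ-CAMTA1. In YAP5SA it stood at 274, 289 and 265 CPM and in YAP-TFE3 at 263, 222 and 203 CPM. None of these 12 libraries overlapped EV. The change was 0.99 ± 0.12, adjusted p = 2.02e-06 in TAZ-CAMTA1, a fold of 1.98. It was 0.69 ± 0.12, adjusted p = 3.21e-05 in TAZ4SA, 0.75 ± 0.12, adjusted p = 6.18e-06 in YAP5SA and 0.48 ± 0.12, adjusted p = 0.00562 in YAP-TFE3. The YAP-TFE3 call was lost without YAP-TFE3 replicate 1 (log2 fold change 0.34; log2 fold change 0.34 to 0.56 and adjusted p 0.00131 to 0.0984 over the 13 alternatives). The remaining groups held 178, 149 and 158 CPM (EVsub), 202, 181 and 177 CPM (CAMTA1) and 163, 155 and 159 CPM (TFE3). From the highest group mean to the lowest the order was TAZ-CAMTA1, YAP5SA, TAZ4SA, YAP-TFE3, CAMTA1, EV, EVsub and TFE3, and no step between neighbours was called, although CAMTA1 did not overlap YAP-TFE3 or EV.

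Tead2 (ENSMUSG00000030796, chr7:45215753-45233644 on the plus strand), a TEAD known from early embryos, moved in opposite directions with the full-length forms and the fusions. The EV libraries had 135, 101 and 129 CPM, YAP5SA 189, 209 and 229 CPM and TAZ4SA 196, 185 and 117 CPM. The fusion libraries were lower, at 78.8, 71.04 and 73.1 CPM in TAZ-CAMTA1 and 66.6, 83.8 and 94.6 CPM in YAP-TFE3. Both fusion groups lay wholly under EV and YAP5SA wholly above it, while TAZ4SA replicate 3 fell within the EV range. Against EV, Tead2 rose in YAP5SA (0.78 ± 0.17, adjusted p = 0.000269) and TAZ4SA (0.45 ± 0.17, adjusted p = 0.0264) and fell in TAZ-CAMTA1 (-0.71 ± 0.17, adjusted p = 0.00393) and YAP-TFE3 (-0.57 ± 0.17, adjusted p = 0.0219). The TAZ4SA call was lost with library totals alone as the scale, with at least 10 counts required in every library, in a fit of those 2 groups alone and without EV replicate 2, TAZ4SA replicate 1 or TAZ4SA replicate 2 (log2 fold change 0.31 to 0.36 in the last 3; log2 fold change 0.24 to 0.65 and adjusted p 0.000812 to 0.186 over the 13 alternatives). The YAP-TFE3 call was lost without EV replicate 1, EV replicate 3 or YAP-TFE3 replicate 1 (log2 fold change -0.53 to -0.47; log2 fold change -0.69 to -0.47 and adjusted p 0.00424 to 0.124 over the 13 alternatives). In the sub-confluent groups, EVsub had 86.8, 109.9 and 101 CPM and CAMTA1 57.3, 77.2 and 80.1 CPM, with no overlap but no call (-0.47 ± 0.17, adjusted p = 0.145). TFE3 had 109.8, 118 and 108 CPM. The order was YAP5SA, TAZ4SA, EV, TFE3, EVsub, YAP-TFE3, TAZ-CAMTA1 and CAMTA1, in which the step from TAZ4SA to EV alone was called. An exon of Tead2 overlaps Cd37 on the opposite strand, and Cd37 had at most 49 counts in any library (TAZ4SA) and at most 12 in YAP5SA.

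Tead3 (ENSMUSG00000002249, chr17:28331671-28350817 on the minus strand), known from placenta, rose with the full-length forms. It stood at 58.9, 50.4 and 58.98 CPM in EV, 70.4, 94.4 and 64.03 CPM in TAZ4SA and 83.3, 89.98 and 77.3 CPM in YAP5SA, all 6 of the latter libraries above EV. The rise was 0.57 ± 0.13, adjusted p = 0.000355 in YAP5SA and 0.44 ± 0.13, adjusted p = 0.00512 in TAZ4SA. With library totals alone as the scale the YAP5SA call was lost (log2 fold change 0.20 to 0.63 and adjusted p 7.37e-05 to 0.11 over the 13 alternatives). The TAZ4SA call was lost with library totals alone as the scale, in a fit of those 2 groups alone and without TAZ4SA replicate 2 (log2 fold change 0.26; log2 fold change 0.24 to 0.55 and adjusted p 0.000753 to 0.0934 over the 13 alternatives). Both fusions gave values close to EV, 55.8, 56.6 and 53.8 CPM in TAZ-CAMTA1 and 57.6, 60.1 and 59.8 CPM in YAP-TFE3, with 95% intervals of the log2 difference of -0.27 to 0.23 and -0.17 to 0.32. TFE3 had the lowest level at 44.1, 44.6 and 43.1 CPM, under every EV library, without a call (-0.35 ± 0.13, adjusted p = 0.154), and in a fit of those 2 groups alone it was called lower (log2 fold change -0.34, adjusted p = 0.0244, the 1 of 13 alternatives with a call). EVsub had 56.8, 53.5 and 68.4 CPM and CAMTA1 52.6, 60.2 and 69.6 CPM. In the order YAP5SA, TAZ4SA, CAMTA1, EVsub, YAP-TFE3, EV, TAZ-CAMTA1 and TFE3, the steps from TAZ4SA to CAMTA1 and from TAZ-CAMTA1 to TFE3 were called (in pairs where 57.3% and 30.2% of all genes were) and the other 5 were not. The step from TAZ4SA to CAMTA1 mixes construct with density, which cannot be told apart there.

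Tead4 (ENSMUSG00000030353, chr6:128224288-128300823 on the minus strand), the TEAD needed to form the trophectoderm of the early embryo, was called higher than EV in YAP5SA alone. Its EV libraries were uneven, at 58.8, 34.9 and 59.7 CPM, and replicate 2 stood low. YAP5SA had 76.3, 76.2 and 64.9 CPM, TAZ-CAMTA1 61.7, 71.97 and 60.6 CPM, TAZ4SA 43.5, 53.7 and 45.1 CPM and YAP-TFE3 48.1, 44.2 and 54.01 CPM. The change in YAP5SA was 0.50 ± 0.16, adjusted p = 0.00877, and the call was lost with library totals alone as the scale and without EV replicate 2 (log2 fold change 0.29; log2 fold change 0.13 to 0.63 and adjusted p 0.0042 to 0.472 over the 13 alternatives). All TAZ-CAMTA1 libraries exceeded EV, without a call (0.34 ± 0.16, adjusted p = 0.144). The other groups held 43.6, 48.3 and 36.8 CPM (EVsub), 46.2, 38.5 and 36.8 CPM (CAMTA1) and 60.6, 51.02 and 47.4 CPM (TFE3). EVsub was not called against EV in the test of all libraries (-0.25 ± 0.16, adjusted p = 0.292), and without EV replicate 2 it was called lower (log2 fold change -0.47, adjusted p = 0.0235, the 1 of 13 alternatives with a call). No step was called in the order YAP5SA, TAZ-CAMTA1, TFE3, EV, YAP-TFE3, TAZ4SA, EVsub and CAMTA1.

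Vgll2 (ENSMUSG00000049641, chr10:52022502-52028471 on the plus strand) was at 0 in all 24 libraries, which allows at most 3 counts in a library, or 0.0996 to 0.182 CPM. Vgll1, a further member of the vestigial-like family, had 2 counts in all, both in 1 YAP5SA library. The vestigial-like genes that passed the limit on counts were Vgll3 and Vgll4.

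Vgll3 (ENSMUSG00000091243, chr16:65815257-65866368 on the plus strand) was highest in the fusion groups. The EV libraries had 43.3, 72.96 and 55.3 CPM, YAP-TFE3 154, 100.1 and 102 CPM and TAZ-CAMTA1 88.9, 115 and 91.4 CPM, so every fusion library exceeded every EV library. It rose by 1.06 ± 0.27, adjusted p = 0.00821 in YAP-TFE3, a fold of 2.08, and by 0.79 ± 0.27, adjusted p = 0.0381 in TAZ-CAMTA1. Of all members its replicates were the least even, with a median coefficient of variation of 20.4% over groups. The YAP-TFE3 call was lost without EV replicate 1 or YAP-TFE3 replicate 1 (log2 fold change 0.80 to 0.89; log2 fold change 0.80 to 1.27 and adjusted p 6.83e-06 to 0.108 over the 13 alternatives). The TAZ-CAMTA1 call was lost with library totals alone as the scale, with at least 10 counts required in every library and without EV replicate 1, EV replicate 3, TAZ-CAMTA1 replicate 2 or TAZ-CAMTA1 replicate 3 (log2 fold change 0.62 to 0.84 in the last 4; log2 fold change 0.62 to 0.999 and adjusted p 0.000877 to 0.182 over the 13 alternatives). YAP5SA had 58.9, 64.6 and 58.4 CPM and TAZ4SA 52.8, 38.4 and 105 CPM, with TAZ4SA replicate 3 far above the other TAZ4SA libraries. Their intervals against EV were -0.44 to 0.61 and -0.32 to 0.73 on the log2 scale. CAMTA1, at 93.04, 91.4 and 92.8 CPM, lay wholly above EVsub, at 65.2, 40.2 and 74.1 CPM, without a call (0.63 ± 0.27, adjusted p = 0.217). When genes with low counts were kept it was called (adjusted p = 0.0389, the 1 of 13 alternatives with a call). TFE3 had 41.3, 36.6 and 40.8 CPM, the lowest group. In the order YAP-TFE3, TAZ-CAMTA1, CAMTA1, TAZ4SA, YAP5SA, EVsub, EV and TFE3, no step was called, although TFE3 lay wholly under EV.

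Vgll4 (ENSMUSG00000030315, chr6:114860628-114969994 on the minus strand), the TEAD-bound repressor, was highest in YAP5SA. It had 125, 132 and 134 CPM there against 86.6, 53.4 and 75.2 CPM in EV, a change of 0.86 ± 0.14, adjusted p = 9.23e-06 and a fold of 1.82. TAZ4SA had 65.6, 93.5 and 71.5 CPM, TAZ-CAMTA1 83.1, 84.3 and 83.2 CPM and YAP-TFE3 78.7, 69.2 and 79.4 CPM, all overlapping EV. Their 95% intervals against EV were -0.17 to 0.37, -0.051 to 0.49 and -0.19 to 0.35 on the log2 scale. The sub-confluent groups had the lowest values, 44.6, 51.4 and 54.9 CPM in EVsub and 34.8, 37.1 and 37.4 CPM in CAMTA1. EVsub was lower than EV at a log2 difference of -0.51 ± 0.14, adjusted p = 0.0105, although EV replicate 2 fell within the EVsub range, and the call was lost in a fit of those 2 groups alone and without EV replicate 1 or EVsub replicate 1 (log2 fold change -0.43 to -0.35 in the last 2; log2 fold change -0.69 to -0.35 and adjusted p 0.000573 to 0.0974 over the 13 alternatives). CAMTA1 lay wholly under EVsub, without a call (-0.47 ± 0.14, adjusted p = 0.0794), and was called by DESeq2, when genes with low counts were kept and without EVsub replicate 1 (log2 fold change -0.55), 3 of 13 alternatives. TFE3 had 58.4, 67.6 and 64.7 CPM. The order was YAP5SA, TAZ-CAMTA1, TAZ4SA, YAP-TFE3, EV, TFE3, EVsub and CAMTA1, and the step from YAP5SA to TAZ-CAMTA1 alone was called (in a pair where 70.6% of all genes were).

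Yap1 (ENSMUSG00000053110, chr9:7931999-8004596 on the minus strand) was lower with both full-length forms, including the form of YAP, YAP5SA. The EV libraries had 193, 169.9 and 189 CPM, YAP5SA 102, 111 and 91.6 CPM and TAZ4SA 118, 113 and 112 CPM, and no library of the latter groups reached the lowest of EV. The log2 fold change of Yap1 was -0.86 ± 0.084, adjusted p = 8.13e-09 in YAP5SA and -0.69 ± 0.084, adjusted p = 5.3e-07 in TAZ4SA. Both calls were kept under all 13 alternatives. TAZ-CAMTA1, at 159, 155 and 152 CPM, also lay wholly under EV (-0.25 ± 0.083, adjusted p = 0.0376). That call was lost when genes with low counts were kept, with the replicate number as a block and without EV replicate 1, EV replicate 3, TAZ-CAMTA1 replicate 1, TAZ-CAMTA1 replicate 2 or TAZ-CAMTA1 replicate 3 (log2 fold change -0.27 to -0.21 in the last 5; log2 fold change -0.30 to -0.21 and adjusted p 0.00267 to 0.257 over the 13 alternatives). YAP-TFE3, at 156, 158 and 171 CPM, was not called by edgeR (-0.19 ± 0.083, adjusted p = 0.136) and was called by DESeq2 (adjusted p = 0.0312, the 1 of 13 alternatives with a call). Yap1 was also lower in the sub-confluent empty vector: EVsub had 137, 138 and 152 CPM and a log2 difference from EV of -0.37 ± 0.083, adjusted p = 0.003, with no overlap, and the call was lost in a fit of those 2 groups alone (log2 fold change -0.42 to -0.33 and adjusted p 4.38e-06 to 0.0519 over the 13 alternatives). CAMTA1 had 142, 138 and 144 CPM and TFE3 179, 169.6 and 173 CPM. Of the steps in the order EV, TFE3, YAP-TFE3, TAZ-CAMTA1, EVsub, CAMTA1, TAZ4SA and YAP5SA, the one from CAMTA1 to TAZ4SA alone was called, and YAP5SA lay wholly under TAZ4SA without a call. CAMTA1 and TAZ4SA also differ in density, so construct and density cannot be told apart in that step.

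Wwtr1 (ENSMUSG00000027803, chr3:57455649-57575910 on the minus strand), which encodes TAZ, had smaller fold changes than Yap1 in the full-length groups. It had 129.6, 137 and 136 CPM in EV, 164, 171 and 152 CPM in TAZ4SA and 139, 158 and 154 CPM in TAZ-CAMTA1. TAZ4SA was called higher (0.28 ± 0.09, adjusted p = 0.0113), and the call was lost with library totals alone as the scale, when genes with low counts were kept and in a fit of those 2 groups alone (log2 fold change 0.091 to 0.32 and adjusted p 0.00532 to 0.352 over the 13 alternatives). YAP5SA had 143, 165 and 138 CPM, above EV without a call (0.15 ± 0.09, adjusted p = 0.137), and with library totals alone as the scale the value turned to -0.23 (adjusted p = 0.0171, the 1 of 13 alternatives with a call). YAP-TFE3 had 124, 116 and 124 CPM (-0.14 ± 0.09, adjusted p = 0.329). EVsub, at 102, 107 and 117 CPM, was lower than EV (-0.30 ± 0.09, adjusted p = 0.0185), a call lost when genes with low counts were kept, in a fit of those 2 groups alone and without EV replicate 3, EVsub replicate 1 or EVsub replicate 2 (log2 fold change -0.29 to -0.26 in the last 3; log2 fold change -0.36 to -0.26 and adjusted p 0.00173 to 0.134 over the 13 alternatives). CAMTA1 had 94.6, 105 and 109 CPM and TFE3 120.3, 112 and 113 CPM. The order TAZ4SA, TAZ-CAMTA1, YAP5SA, EV, YAP-TFE3, TFE3, EVsub and CAMTA1 held no called step, although EV overlapped neither of its neighbours. Per kb of merged exon, Yap1 made up 41.5% ± 2.21 of the summed Yap1 and Wwtr1 level in EV, 26.7% ± 1.14 in TAZ4SA, 26.03% ± 0.782 in YAP5SA, 34.8% ± 2.03 in TAZ-CAMTA1 and 40.7% ± 1.23 in YAP-TFE3. With the longest transcript as the length the share of Yap1 in EV was 54.96%, in TAZ4SA 38.5% and in YAP5SA 37.7%, so which of them was the more abundant in EV depended on the length used, while the smaller share in TAZ4SA and YAP5SA did not.

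The scale bore on the full-length groups. With library totals alone the median log2 fold change of all genes shifted by -0.37 in YAP5SA against EV and by -0.17 in TAZ4SA against EV, and the share of higher genes among those called went from 50.96% to 34.5% and from 54.1% to 41.9%. The fusion groups shifted by under 0.1. On either scale Tead1, Tead2 and Vgll4 were called higher and Yap1 lower in YAP5SA, and Tead1 was called higher and Yap1 lower in TAZ4SA. Total RNA per cell was not analysed here.

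Each fusion was then set beside the full-length form of its TAZ or YAP part, TAZ4SA or YAP5SA, which removes EV from the comparison. Those forms also carry the alanine replacements, so fusion and replacement cannot be told apart there. Tead2 was lower in both fusions, with a log2 fold change of -1.16 ± 0.17, adjusted p = 7.97e-06 in TAZ-CAMTA1 against TAZ4SA and of -1.36 ± 0.17, adjusted p = 3.39e-07 in YAP-TFE3 against YAP5SA, and Yap1 was higher in both, by 0.44 ± 0.084, adjusted p = 0.000148 and 0.67 ± 0.084, adjusted p = 3.31e-07. These 4 calls were kept under all 13 alternatives. In the TAZ pair 5 of 8 members were called, 3 higher and 2 lower, against 54.7% of all genes tested (26.6% higher and 28.1% lower), and in the YAP pair all 8 tested, 2 higher and 6 lower, against 70.9% of all genes tested (36.4% higher and 34.5% lower). Tead3 was lower in TAZ-CAMTA1 (-0.46 ± 0.13, adjusted p = 0.00425) and in YAP-TFE3 (-0.50 ± 0.13, adjusted p = 0.00133); the first of these calls was lost in a fit of those 2 groups alone and without TAZ4SA replicate 2 (log2 fold change -0.28; log2 fold change -0.57 to -0.27 and adjusted p 0.000591 to 0.056 over the 13 alternatives) and the other with library totals alone as the scale (log2 fold change -0.55 to -0.14 and adjusted p 0.000407 to 0.269 over the 13 alternatives). Vgll3 was higher in YAP-TFE3 than in YAP5SA by 0.97 ± 0.27, adjusted p = 0.0027, kept under all alternatives. In the TAZ pair it was not called (0.58 ± 0.27, adjusted p = 0.068), and without TAZ4SA replicate 3 it was (1.11, adjusted p = 0.000352), as when genes with low counts were kept, 2 of 13 alternatives.

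**Figure D4:**
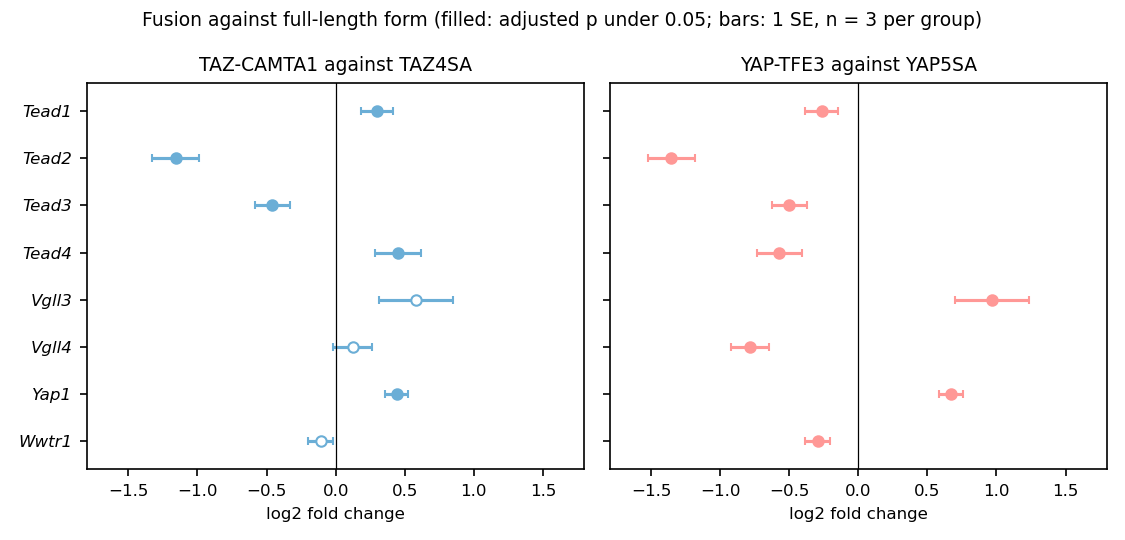
Log2 fold change of each gene (x axis) in TAZ-CAMTA1 against TAZ4SA (left) and YAP-TFE3 against YAP5SA (right), with bars of 1 SE and filled points at an adjusted p under 0.05. Tead2 lies near -1.16 and -1.36 and Yap1 to the right of 0 in both panels, while Tead4 and Vgll4 differ between the panels.

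Between the pairs, Tead1, Tead4 and Vgll4 did not move alike. Tead4 was higher in TAZ-CAMTA1 than in TAZ4SA (0.45 ± 0.16, adjusted p = 0.0239) and lower in YAP-TFE3 than in YAP5SA (-0.57 ± 0.16, adjusted p = 0.00356). The first of these calls was lost without TAZ4SA replicate 1, TAZ4SA replicate 3 or TAZ-CAMTA1 replicate 2 (log2 fold change 0.37 to 0.42; log2 fold change 0.37 to 0.63 and adjusted p 0.00216 to 0.0988 over the 13 alternatives) and the other with library totals alone as the scale (log2 fold change -0.65 to -0.21 and adjusted p 0.00055 to 0.232 over the 13 alternatives). Vgll4 differed by 0.12 ± 0.14, adjusted p = 0.47 in the TAZ pair (called on library totals alone, at 0.31, the 1 of 13 alternatives with a call) and by -0.78 ± 0.14, adjusted p = 3.02e-05 in the YAP pair, the latter kept under all 13 alternatives. Tead1 was higher in TAZ-CAMTA1 than in TAZ4SA by 0.30 ± 0.12, adjusted p = 0.0345, a call lost in a fit of those 2 groups alone and without TAZ4SA replicate 1, TAZ4SA replicate 2, TAZ-CAMTA1 replicate 2 or TAZ-CAMTA1 replicate 3 (log2 fold change 0.21 to 0.29 in the last 4; log2 fold change 0.21 to 0.45 and adjusted p 0.00573 to 0.167 over the 13 alternatives). It was lower in YAP-TFE3 than in YAP5SA, at -0.27 ± 0.12, adjusted p = 0.0449, a call lost under 9 of 13 alternatives, among them each of YAP5SA replicate 1, YAP5SA replicate 2, YAP5SA replicate 3, YAP-TFE3 replicate 2 and YAP-TFE3 replicate 3 left out, with a change of sign to 0.092 on library totals (log2 fold change -0.36 to 0.092 and adjusted p 0.0148 to 0.562 over the 13 alternatives). The test of the difference between the 2 pairs, added after the values were seen, gave 1.02 ± 0.23, adjusted p = 0.00198 for Tead4, 0.91 ± 0.20, adjusted p = 0.00136 for Vgll4 and 0.56 ± 0.16, adjusted p = 0.012 for Tead1. The other 5 members tested had adjusted p from 0.143 (Yap1) to 0.888 (Tead3), against 31.4% of all genes called. Wwtr1 was lower in YAP-TFE3 than in YAP5SA (-0.29 ± 0.09, adjusted p = 0.00579), a call lost with library totals alone as the scale, when genes with low counts were kept and without YAP5SA replicate 2 (log2 fold change -0.21 without the library), with a turn to 0.069 on library totals (log2 fold change -0.34 to 0.069 and adjusted p 0.00127 to 0.458 over the 13 alternatives). The matching interval of the TAZ pair was -0.28 to 0.067.

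YAP5SA set against TAZ4SA gave 2 of 8 members called, Vgll4 (0.77 ± 0.14, adjusted p = 0.000176) and Tead4 (0.61 ± 0.16, adjusted p = 0.00475), both higher in YAP5SA, against 42.4% of all genes tested (19.6% higher and 22.8% lower). Both were kept under all alternatives. On library totals Yap1 and Wwtr1 were called as well. Calls also appeared for Tead2 without TAZ4SA replicate 1 (log2 fold change 0.47), for Tead3 without TAZ4SA replicate 2 (0.31) and for Yap1 with at least 10 counts required in every library or without YAP5SA replicate 2 (the latter -0.24). YAP-TFE3 against TAZ-CAMTA1 gave 2 of 8, both lower in YAP-TFE3, against 11.6% of all genes tested (6.32% higher and 5.32% lower). Tead1 differed by -0.51 ± 0.12, adjusted p = 0.00588, kept under all 13 alternatives. Wwtr1 differed by -0.31 ± 0.09, adjusted p = 0.0247, and that call was lost when genes with low counts were kept and without TAZ-CAMTA1 replicate 2, TAZ-CAMTA1 replicate 3, YAP-TFE3 replicate 1, YAP-TFE3 replicate 2 or YAP-TFE3 replicate 3 (log2 fold change -0.33 to -0.28 in the last 5; log2 fold change -0.37 to -0.28 and adjusted p 0.00465 to 0.131 over the 13 alternatives). Tead4 was not called there, and in a fit of those 2 groups alone it was called lower (log2 fold change -0.41, the 1 of 13 alternatives with a call). Between the fusions Tead2 and Vgll3 differed by 0.14 and 0.27 on the log2 scale, with intervals of -0.19 to 0.47 and -0.25 to 0.79.

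The rest of the pathway gives the setting of these changes. Among 20 tested targets of YAP and TAZ, 10 were higher and 5 lower in TAZ4SA against EV, 11 and 5 in YAP5SA, 10 and 0 in TAZ-CAMTA1, and 6 and 3 in YAP-TFE3. In that order the called shares of the targets were 75%, 80%, 50% and 45%, where 57.5%, 71.2%, 21.5% and 15.3% of all genes tested were called, so the share in YAP5SA was near the background. Ccn1, the matricellular protein CYR61, changed by 2.74 ± 0.38 in TAZ4SA, 5.25 ± 0.43 in YAP5SA, 2.53 ± 0.38 in TAZ-CAMTA1 and 1.73 ± 0.37 in YAP-TFE3. Ankrd1, an ankyrin repeat protein of muscle, changed by 3.45 ± 0.33 in TAZ4SA, 3.03 ± 0.33 in YAP5SA, 2.08 ± 0.32 in TAZ-CAMTA1 and 2.69 ± 0.33 in YAP-TFE3. Ccn2, the growth factor CTGF, changed by 3.96 ± 0.43 in TAZ4SA and 4.24 ± 0.43 in YAP5SA, and was not called in TAZ-CAMTA1 (0.99 ± 0.39, adjusted p = 0.0781) or YAP-TFE3 (1.06 ± 0.39, adjusted p = 0.0728). Not all listed targets rose: Fjx1, a Golgi kinase of the Fat pathway, changed by -2.56 ± 0.28 in TAZ4SA, -3.02 ± 0.30 in YAP5SA and -0.995 ± 0.25 in YAP-TFE3, and stood at -0.57 ± 0.25 in TAZ-CAMTA1 without a call. Dock5, a Rac exchange factor, changed by -1.48 ± 0.13 in TAZ4SA, -1.25 ± 0.13 in YAP5SA and -0.41 ± 0.13 in YAP-TFE3, against -0.26 ± 0.13 without a call in TAZ-CAMTA1. Tgfb2, a TGF-beta ligand, changed by -1.10 ± 0.20 in TAZ4SA and -0.77 ± 0.20 in YAP-TFE3, and was not called in YAP5SA (-0.26 ± 0.20) or TAZ-CAMTA1 (-0.55 ± 0.20). The median over the targets was 0.65 in TAZ4SA, 0.92 in YAP5SA, 0.34 in TAZ-CAMTA1 and 0.16 in YAP-TFE3. EVsub against EV gave 7 higher and 5 lower of the 20 (22.1% of all genes), TFE3 none and CAMTA1 against EVsub 1 higher.

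Of 22 Hippo kinases and adaptors, 11 were higher and 5 lower in TAZ4SA, 11 and 9 in YAP5SA, 8 and 1 in TAZ-CAMTA1, and 7 and 1 in YAP-TFE3. The called shares were 72.7%, 90.9%, 40.9% and 36.4%, beside the same 57.5%, 71.2%, 21.5% and 15.3% of all genes. Amotl2, Lats2 and Ptpn14 stand in this list and among the targets. Wwc1 (KIBRA), which activates the LATS kinases, changed by 2.34 ± 0.21 in TAZ4SA, 2.45 ± 0.21 in YAP5SA and 1.48 ± 0.20 in TAZ-CAMTA1, and was not called in YAP-TFE3 (0.35 ± 0.20). Amotl2, an angiomotin that binds YAP, changed by 1.41 ± 0.16 in TAZ4SA, 2.09 ± 0.16 in YAP5SA, 0.95 ± 0.16 in TAZ-CAMTA1 and 0.49 ± 0.16 in YAP-TFE3. Ajuba, a LIM protein that restrains LATS, changed by 0.71 ± 0.13 in TAZ4SA, 1.76 ± 0.13 in YAP5SA, 1.54 ± 0.13 in TAZ-CAMTA1 and 0.44 ± 0.13 in YAP-TFE3. The kinase gene Lats2 changed by 0.95 ± 0.14 in TAZ4SA, 1.41 ± 0.14 in YAP5SA, 1.17 ± 0.14 in TAZ-CAMTA1 and 0.66 ± 0.14 in YAP-TFE3, and Wwc2 by 0.61 ± 0.11 in TAZ4SA, 0.98 ± 0.11 in YAP5SA, 0.83 ± 0.11 in TAZ-CAMTA1 and 0.56 ± 0.11 in YAP-TFE3. Amot, a further angiomotin, fell in all 4 groups, at -1.58 ± 0.13 in TAZ4SA, -1.32 ± 0.13 in YAP5SA, -1.09 ± 0.12 in TAZ-CAMTA1 and -0.68 ± 0.12 in YAP-TFE3. The kinase gene Stk3 (-1.17 ± 0.21 in TAZ4SA and -1.45 ± 0.21 in YAP5SA) and Mob1b, a LATS cofactor (-0.78 ± 0.19 in TAZ4SA and -1.81 ± 0.20 in YAP5SA), fell with the full-length forms and were not called in either fusion (-0.25 to -0.15 over both genes). EVsub against EV gave 2 higher and 3 lower, a share of 22.7% beside 22.1% of all genes, TFE3 1 and 1, and CAMTA1 against EVsub 1 higher.

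AP-1 factors bind many of the same enhancers as TEADs. Of 7, 3 were higher and 1 lower in TAZ4SA and in YAP5SA, 1 was higher in TAZ-CAMTA1 and 1 lower in YAP-TFE3. The called shares, 57.1% in each full-length group and 14.3% in each fusion, were at or below those of all genes (57.5%, 71.2%, 21.5% and 15.3%), so the counts are not a result about AP-1. Fosl1 changed by 1.19 ± 0.31 in TAZ4SA, 1.03 ± 0.31 in YAP5SA and 1.79 ± 0.31 in TAZ-CAMTA1 (not called in YAP-TFE3, -0.27 ± 0.32), Junb by 1.69 ± 0.34 and 1.84 ± 0.34 in TAZ4SA and YAP5SA, and Jun by -0.87 ± 0.23, -1.12 ± 0.23 and -0.69 ± 0.23 in TAZ4SA, YAP5SA and YAP-TFE3. Of 9 tested other partners of YAP and TAZ, 3 were higher and 3 lower in TAZ4SA, 2 and 4 in YAP5SA, and 0 and 1 in each fusion, shares of 66.7% in each full-length group and 11.1% in each fusion that lie near or below the background. Runx1, a RUNX factor bound by the WW domains of YAP, was the partner called lower in all 4 groups, at -0.86 ± 0.13 in TAZ4SA, -1.69 ± 0.13 in YAP5SA, -0.60 ± 0.13 in TAZ-CAMTA1 and -0.95 ± 0.13 in YAP-TFE3. It was also lower in TFE3 (-0.51 ± 0.13, adjusted p = 0.0269) and in EVsub against EV (-0.85 ± 0.13, adjusted p = 8.9e-05). Smad4, the common partner of the TGF-beta SMADs, changed by 0.91 ± 0.11 and 0.86 ± 0.11 in TAZ4SA and YAP5SA and was not called in either fusion (-0.031 ± 0.11 and -0.096 ± 0.11). Of 12 muscle genes, a class whose promoters often carry the MCAT element bound by TEADs, 6 passed the limit on counts, some through the groups in which they are high, so no count of calls is given. One of them, Des (desmin), changed by 6.08 ± 0.55 in TAZ4SA, 4.97 ± 0.58 in YAP5SA, 3.52 ± 0.63 in TAZ-CAMTA1 and 4.25 ± 0.60 in YAP-TFE3. It stood at 0.0 to 0.169 CPM in EV and 3.87 to 8.32 CPM in TAZ4SA, so its folds start near 0 and depend on the prior count of the fit. The muscle genes did not all rise. Tagln changed by -1.28 ± 0.28 in TAZ4SA and 1.56 ± 0.28 in YAP5SA. Acta2 changed by -0.77 ± 0.22 in YAP5SA, 0.99 ± 0.22 in TAZ-CAMTA1 and 2.28 ± 0.23 in YAP-TFE3.

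Over the 24 libraries, which share 8 groups and so are not independent, the members did not form a single block. Yap1 ran against most of the others, with Pearson's r of -0.75 with Tead3, -0.56 with Tead2 and -0.51 with Tead1 (log2 CPM, described without a test). Tead4 and Vgll4 went together (r = 0.79), as did Vgll4 and Wwtr1 (0.74), while Vgll3 ran against Tead2 (-0.62) and Tead1 and Tead2 were nearly unrelated (0.076). Among the 11278 other genes whose mean count reached 50, those most like Yap1 were Twsg1 (r = 0.97), Rin2 (r = 0.97) and Ebf1 (r = 0.97). For Tead1 they were Cgn (r = 0.96), Rhpn2 (r = 0.94) and Otud7b (r = 0.94), and for Tead2 Clip3 (r = 0.96), Wipi2 (r = 0.95) and Gm10443 (r = 0.95). Tead3 was followed most closely by Stx5a (r = 0.94), Dpf2 (r = 0.93) and Akr1b8 (r = 0.93), and Vgll4 by Cacna1g (r = 0.94), Ssh1 (r = 0.94) and Lmbr1l (r = 0.93). The likeness was lower for Tead4, with Sipa1l3 (r = 0.84), Wtip (r = 0.80) and Tprn (r = 0.80), for Vgll3, with Mtus1 (r = 0.89), Rab30 (r = 0.88) and Golim4 (r = 0.85), and for Wwtr1, with H19 (r = 0.91), Irf2 (r = 0.90) and Klf13 (r = 0.88).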

How the data were processed

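RNA-Seq of 24 NIH 3T3 libraries was analysed. The authors deposited counts, whole numbers of reads per Ensembl gene and library with no normalization. By the study's methods the libraries were stranded, polyadenylated and 75 bp paired-end, and were processed in bcbio-nextgen, with Hisat2 alignment to mm10 and, beside it, Salmon pseudo-alignment whose transcript abundances tximport summed to gene counts. Which of these routes gave the deposited whole numbers, and the strand setting, are not given in the sources used here, so reads of overlapping antisense genes may not be told apart. Demultiplexing by bcl2fastq is named in the submitters' processing notes. Library totals ran from 16471181 to 30132586 counts, and a gene at 0 may have up to 3 counts, which covers counting error only.

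The 14361 genes whose mean count reached 5 entered the quasi-likelihood test of edgeR 4.0.16 (in R 4.3.3). The libraries were scaled by TMM, and 1 fit held all 24 of them, with a coefficient per group and Benjamini-Hochberg adjustment over all genes tested. SE is the absolute log2 fold change divided by the square root of F, and intervals are the log2 fold change with 1.96 SE on either side. Correlations used log2 CPM with a prior count of 2. Levels were compared between genes per kb of merged exon from GENCODE M21. The same edgeR steps were tried on simulated counts in which a small part of the genes changed in TAZ4SA. Most genes were called in TAZ4SA and YAP5SA in the data, so that trial does not bear on the scale there. The 9 genes, the gene lists and the tests were chosen with earlier results of these data known. Genes named from a list are at most the 2 largest rises and the 2 largest falls among called genes in each of the 4 TAZ or YAP constructs against EV; Vgll1 was named for its counts, and each member's 3 most alike genes by Pearson's r. Tp73 was not matched in the list of partners.

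The labels gave the groups and the replicate numbers. The description of YAP-TFE3 replicate 3 names another replicate number, so its title was followed. In no comparison were all 3 correlations between the deviations of same-numbered libraries above 0.1, so the fit has no replicate block. In CAMTA1 against EVsub these correlations were 0.25, -0.0025 and 0.41 for replicates 1, 2 and 3. Whether some of those libraries were paired was not tested. The alternatives were DESeq2 1.42.0, its size factors, library totals alone, all 24737 genes with a read, the 11461 genes that reached 10 counts in each library, a replicate block, fits of 2 groups alone, and each library left out in turn, where a group then has 2 libraries.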

Additional observations from a re-analysis of the deposited data

Results flagged for a closer look

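The effect of a fusion protein relative to its full-length form differed between the TAZ and the YAP pair for 3 of the 8 genes tested. The contrast was the change from TAZ4SA to TAZ-CAMTA1 minus the change from YAP5SA to YAP-TFE3, tested in the edgeR fit of all libraries, and it was added after the values had been seen. It was 1.02 ± 0.23, adjusted p = 0.00198 for Tead4, 0.91 ± 0.20, adjusted p = 0.00136 for Vgll4 and 0.56 ± 0.16, adjusted p = 0.012 for Tead1, on the log2 scale. The 3 genes are 37.5% of the 8, near the 31.4% of all genes tested that passed, so the count is not a result about these genes. Over 18 alternatives, without a test, the differences ran from 0.84 to 1.12 for Tead4, from 0.73 to 1.07 for Vgll4 and from 0.36 to 0.67 for Tead1, with the lowest values on library totals. The YAP-TFE3 and YAP5SA libraries differed more in their TMM factors (1.01 to 1.06 against 0.773 to 0.829) than the TAZ-CAMTA1 and TAZ4SA libraries did (1.03 to 1.05 against 0.81 to 1.04), and the part of this in the differences was not tested.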

How the results depend on the processing

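Of the 38 calls of members over the 11 comparisons, 17 were kept under all 13 alternatives of their comparison, among them 8 of the 21 calls against an empty vector. The share kept over all genes was not computed, so these counts do not set the members apart from other genes. Of the 1144 values of members under the alternatives, 1053 kept their side of the threshold, 71 lost the call, 17 gained it and 3 reversed. A change of sign was counted as a reversal only with a call in the fit of all groups or under the alternative. Without a call in either, a change of sign was counted with the 1053. The size factors of DESeq2 changed no call. The 3 reversals counted in this way came with library totals alone. They were Wwtr1 in YAP5SA against EV (-0.23) and, in YAP-TFE3 against YAP5SA, Tead1 (0.092) and Wwtr1 (0.069). The fit did not pair the samples by replicate number, and with the replicate block 1 call of a member was lost, that of Yap1 in TAZ-CAMTA1 against EV (-0.25). The causes of the changes below were not tested.

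Library totals alone gave 2 members called in TAZ4SA against EV in place of 5, 4 in YAP-TFE3 against YAP5SA in place of 8 and 4 in YAP5SA against TAZ4SA in place of 2. With that scale the share of higher genes among all called went from 48.5% to 62.0% in TAZ-CAMTA1 against TAZ4SA, from 51.4% to 67.6% in YAP-TFE3 against YAP5SA and from 46.2% to 27.4% in YAP5SA against TAZ4SA. With only the 2 groups in the fit, 2 members were called in TAZ4SA against EV, 1 in TFE3 against EV, 0 in EVsub against EV in place of 3 and 3 in TAZ-CAMTA1 against TAZ4SA in place of 5. The genes called in all were then 1512 against 485 in TFE3 against EV, 22 against 313 in CAMTA1 against EVsub, 1683 against 3173 in EVsub against EV, 2910 against 6087 in YAP5SA against TAZ4SA and 2572 against 1671 in YAP-TFE3 against TAZ-CAMTA1. In CAMTA1 against EVsub, no filter on low counts gave 2 members and 674 genes and DESeq2 1 member and 636 genes. In YAP-TFE3 against TAZ-CAMTA1, no filter gave 1 member in place of 2.

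With each library left out in turn, the members called ran from 3 to 5 in TAZ4SA against EV, 2 to 4 in TAZ-CAMTA1 against EV, 0 to 3 in YAP-TFE3 against EV, 0 to 1 in CAMTA1 against EVsub, 1 to 4 in EVsub against EV, 3 to 5 in TAZ-CAMTA1 against TAZ4SA and 1 to 2 in YAP-TFE3 against TAZ-CAMTA1. The genes called ran from 2010 to 3198 in TAZ-CAMTA1 against EV, 1133 to 2266 in YAP-TFE3 against EV, 192 to 286 in TFE3 against EV, 72 to 710 in CAMTA1 against EVsub, 1971 to 3668 in EVsub against EV and 835 to 1549 in YAP-TFE3 against TAZ-CAMTA1. In TAZ4SA against EV they ran from 7485 to 8878 and in TAZ-CAMTA1 against TAZ4SA from 6697 to 8658. With 3 libraries a group, small changes of single genes could be missed.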
